A study of Mus musculus with 6 samples.

Results

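Glycolysis, the pentose phosphate pathway and the TCA (tricarboxylic acid) cycle were examined as a set of 54 enzymes, carriers and regulatory kinases in luminal mammary epithelial cells sorted by a *Sox9* reporter. With earlier results of these data known, the genes were chosen by name. Of them, 49 matched a probe set through the gene annotation of the array, out of 19505 genes with a probe set in all, and each had 1 probe set. The other 5, *Gpi1*, *Pfkfb2*, *Eno1*, *G6pdx* and *Tkt*, are unnamed in that annotation and were not analysed here. RNA came from cells with a high (Sox9-GFP high, 3 arrays) or a low (Sox9-GFP low, 3 arrays) signal of the reporter and was hybridised with 1 colour per array. All cells came from females of the Sox9-GFP;C3(1)/Tag genotype, about 3 months old, on an FVB/NJ background. The C3(1)/Tag transgene expresses SV40 large T antigen, which inactivates p53 and RB, and the Sox9-GFP transgene marks cells that express *Sox9*. Both sorts carry both transgenes, so no cells free of T antigen stand beside them. The suspensions were made from glands of 3 animals, and the sources used here do not say whether the glands were pooled. Values are log2 expression values per probe set, as deposited. A difference is the mean of the 3 Sox9-GFP high arrays minus that of the 3 Sox9-GFP low arrays, with its standard error. It was called where the Benjamini-Hochberg adjusted p from limma, over all 22206 probe sets, was under 0.05.

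Glycolysis splits glucose to pyruvate in the cytosol. Glucose enters through facilitative carriers, is trapped by a hexokinase, committed by phosphofructokinase and oxidised through the triose steps, and the pyruvate is either reduced to lactate and exported or passed to the mitochondrial pyruvate dehydrogenase complex, which pyruvate dehydrogenase kinases inhibit. The pentose phosphate pathway branches off after the hexokinase step and yields NADPH and ribose phosphate, and the TCA cycle oxidises acetyl groups in the mitochondrion. In the mammary gland, luminal cells also draw on glucose for milk lactose and lipid, and tumor cells are known for a high uptake of glucose. Most steps are served by several isoforms, each encoded by a gene of its own.

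The arrays were alike in their overall distribution, with medians between 5.15 and 5.21. Over all probe sets, Pearson's r reached 0.992 to 0.994 within a sort and 0.979 to 0.988 between sorts. *Sox9* was 14.42, 13.77 and 14.46 in Sox9-GFP high arrays 1 to 3, against 13.36, 12.82 and 13.44 in Sox9-GFP low arrays 1 to 3 (difference 1.01, standard error 0.25, adjusted p = 0.0360), a call kept only without Sox9-GFP high array 2 or without number 2 of both sorts. Of 9 luminal markers, 8 did not pass and *Krt19* was lower in Sox9-GFP high cells (difference -1.65, adjusted p = 0.00130), while *Krt7* was higher only with the array numbers as a block (adjusted p = 0.0708 without and 0.00806 with it). Their mean level lay between 15.16 and 15.58 in the Sox9-GFP high arrays and between 15.18 and 15.55 in the Sox9-GFP low arrays. Markers of immune and endothelial cells were low. The mean over 6 immune genes was 3.77 to 4.02 in Sox9-GFP high and 3.95 to 4.08 in Sox9-GFP low arrays, and that over 6 endothelial genes was 4.29 to 4.58 and 4.26 to 4.80. In both lists 0 genes passed in limma or in the methods' t-test, and 0 had an unadjusted p under 0.05 in limma. After adjustment the methods' t-test passed almost no probe set at all, so its 0 in these lists and in the basal list is uninformative. Of 8 basal genes 0 passed in limma without the block or in the methods' t-test (2 had an unadjusted p under 0.05, both higher). With the block *Mylk*, a kinase of contractile cells, was higher (difference 2.53, adjusted p = 0.0604 without and 0.00263 with it). The mean over the basal list was 6.17 to 7.03 in Sox9-GFP high and 6.06 to 6.44 in Sox9-GFP low arrays. Of 11 cell cycle genes 7 were higher and none was lower, with a mean level of 12.41 to 12.69 in Sox9-GFP high and 11.65 to 11.98 in Sox9-GFP low arrays. The part of this shift in the values below was not tested. In such bulk samples fewer cells of a type and less RNA per cell cannot be told apart.

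Several genes at the entry, the commitment step, the aldolase step and the end of glycolysis were lower in Sox9-GFP high cells. *Gapdh*, *Pgk1* and most enzymes of the mitochondrion did not pass the test. Over the whole set, 10 of 49 genes were lower (20.4%), 1 was higher and 38 did not pass, where 3.20% of all probe sets were lower and 4.0% higher. The median difference over the 49 genes was -0.24, against 0.01 over all probe sets. As the genes were listed with earlier results of these data known, these shares and those below are a description. A replicate block by array number gave 12 genes lower and 1 higher, where 4.99% of all probe sets were lower and 6.32% higher. For 15 genes every value of the Sox9-GFP high arrays lay below those of the Sox9-GFP low arrays, and for 3 above them, against 11.4% and 14.1% of all probe sets. In 18 of 49 genes the Sox9-GFP high array was the lower one within each of the 3 array numbers, against 20.7% of all probe sets. The called falls lay in 3 groups. Of 19 genes of glycolysis and lactate, 7 were lower and none was higher (median difference -0.53). Of 5 measured genes of the pentose phosphate pathway, 1 was lower, and of 19 genes listed for the TCA cycle, 2 were lower.

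**Figure D1:**
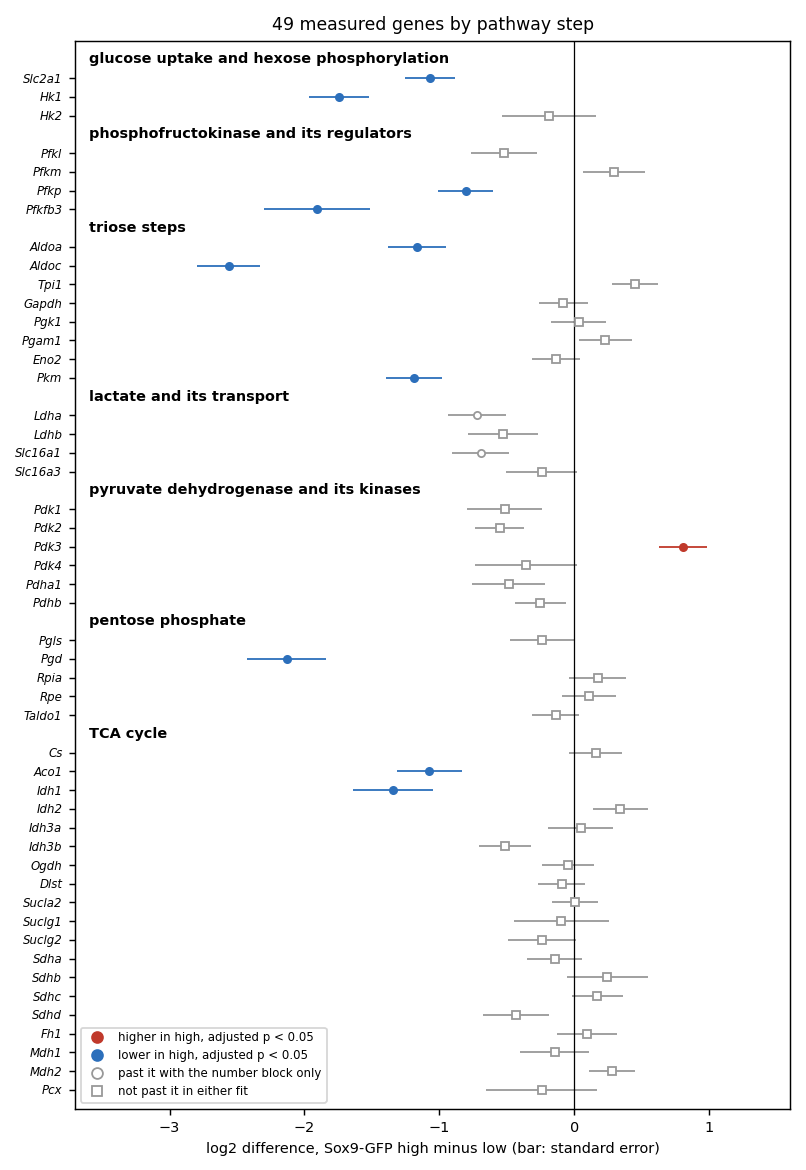
Mean of the Sox9-GFP high arrays minus mean of the Sox9-GFP low arrays, in log2 (horizontal axis), for each of the 49 measured genes, ordered by pathway step, with bars of 1 standard error from limma. The called falls (blue) lie between -2.56 for *Aldoc* and -0.81 for *Pfkp*, the only called rise (red) is *Pdk3* at 0.80, and open circles mark *Ldha* and *Slc16a1*, which passed only with the array number as a block.

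Genes of glucose uptake and of glucose trapping were lower in Sox9-GFP high cells. *Slc2a1*, the glucose carrier GLUT1 of the plasma membrane, was 16.92, 16.43 and 16.77 in Sox9-GFP high arrays 1 to 3, against 17.69, 17.72 and 17.92 in Sox9-GFP low arrays 1 to 3. It stayed bright in both sorts without overlap, and was 2.10-fold lower in Sox9-GFP high cells (difference -1.07, standard error 0.19, adjusted p = 0.00847). *Hk1*, the hexokinase of most tissues that binds to mitochondria, was 6.47, 7.15 and 6.61 in Sox9-GFP high arrays, against 8.61, 8.64 and 8.20 in Sox9-GFP low arrays. The gap between the sorts was wider than the spread within either, and *Hk1* was 3.35-fold lower (difference -1.74, standard error 0.22, adjusted p = 0.00193). *Hk2*, the inducible hexokinase, was 9.19, 8.41 and 8.55 in Sox9-GFP high and 9.70, 8.79 and 8.22 in Sox9-GFP low arrays. The sorts overlapped for *Hk2*, which differed by -0.19 (standard error 0.35, adjusted p = 0.841).

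At the commitment step, the platelet-type subunit of phosphofructokinase and the kinase that makes its activator were lower. *Pfkp* was 13.39, 13.38 and 13.87 in Sox9-GFP high arrays, against 14.27, 14.19 and 14.61 in Sox9-GFP low arrays, and was 1.75-fold lower (difference -0.81, standard error 0.20, adjusted p = 0.0424). *Pfkfb3*, a bifunctional enzyme that sets the level of the sugar phosphate activating phosphofructokinase, was 9.06, 7.50 and 7.52 in Sox9-GFP high arrays, against 10.34, 9.49 and 9.98 in Sox9-GFP low arrays. Sox9-GFP high array 1 stood well above the other two for *Pfkfb3* and still below every Sox9-GFP low array. The fall was 3.75-fold (difference -1.91, standard error 0.39, adjusted p = 0.0177). The liver-type subunit *Pfkl* differed by -0.52 (adjusted p = 0.269) and the muscle-type subunit *Pfkm* by 0.29 (adjusted p = 0.553), neither past the test.

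Both measured aldolases and the pyruvate kinase of the last step were lower, while the measured genes of the steps between did not pass. *Aldoc*, the brain-type aldolase, had the widest gap of the 49 genes. It was 11.02, 11.15 and 10.87 in Sox9-GFP high arrays, against 13.35, 14.10 and 13.28 in Sox9-GFP low arrays, and was 5.90-fold lower (difference -2.56, standard error 0.23, adjusted p = 4.41e-04). *Aldoa*, the muscle-type aldolase found in most cells, was 10.88, 10.89 and 10.43 in Sox9-GFP high arrays, against 11.76, 12.24 and 11.71 in Sox9-GFP low arrays. Its arrays too did not overlap, with a 2.24-fold fall (difference -1.17, standard error 0.21, adjusted p = 0.00998). *Pkm*, which encodes the muscle-type pyruvate kinases and whose splice forms were not separated here, was 12.93, 12.61 and 12.59 in Sox9-GFP high arrays, against 13.83, 14.24 and 13.63 in Sox9-GFP low arrays. It was 2.28-fold lower (difference -1.19, standard error 0.21, adjusted p = 0.00798). Between aldolase and pyruvate kinase, *Gapdh*, *Pgk1*, *Pgam1* and *Tpi1* did not pass. *Gapdh* was 13.58 ± 0.05 in Sox9-GFP high and 13.66 ± 0.25 in Sox9-GFP low cells (SD, n = 3 each), and *Pgk1* differed by 0.03 (standard error 0.20). *Tpi1*, triosephosphate isomerase, was higher in every Sox9-GFP high array, at 15.13, 14.91 and 15.10 against 14.58, 14.74 and 14.46, but missed the threshold (difference 0.45, adjusted p = 0.156). *Eno2*, the neuronal enolase, lay below the array medians throughout, and *Eno1* was not analysed, so little can be said of the enolase step. Several glycolytic genes, *Gapdh* and *Aldoa* among them, have near-identical copies elsewhere in the genome that a probe set may not tell apart, so their values are uncertain to that extent.

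Among the genes of lactate and its transport, *Ldha* and *Slc16a1* lay at the edge of the test. *Ldha*, the lactate dehydrogenase subunit that favours lactate, was 11.30, 11.04 and 10.99 in Sox9-GFP high arrays, against 12.06, 12.03 and 11.40 in Sox9-GFP low arrays, a difference of -0.72 (standard error 0.22, adjusted p = 0.0783 without and 0.0347 with the replicate block). *Slc16a1*, the monocarboxylate carrier MCT1, was 7.58, 8.21 and 7.74 in Sox9-GFP high arrays, against 8.45, 8.75 and 8.40 in Sox9-GFP low arrays, a difference of -0.69 (standard error 0.21, adjusted p = 0.0799 without and 0.0301 with the block). For both genes the sorts did not overlap. The other subunit *Ldhb* and the export carrier *Slc16a3* did not pass in either fit.

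**Figure D2:**
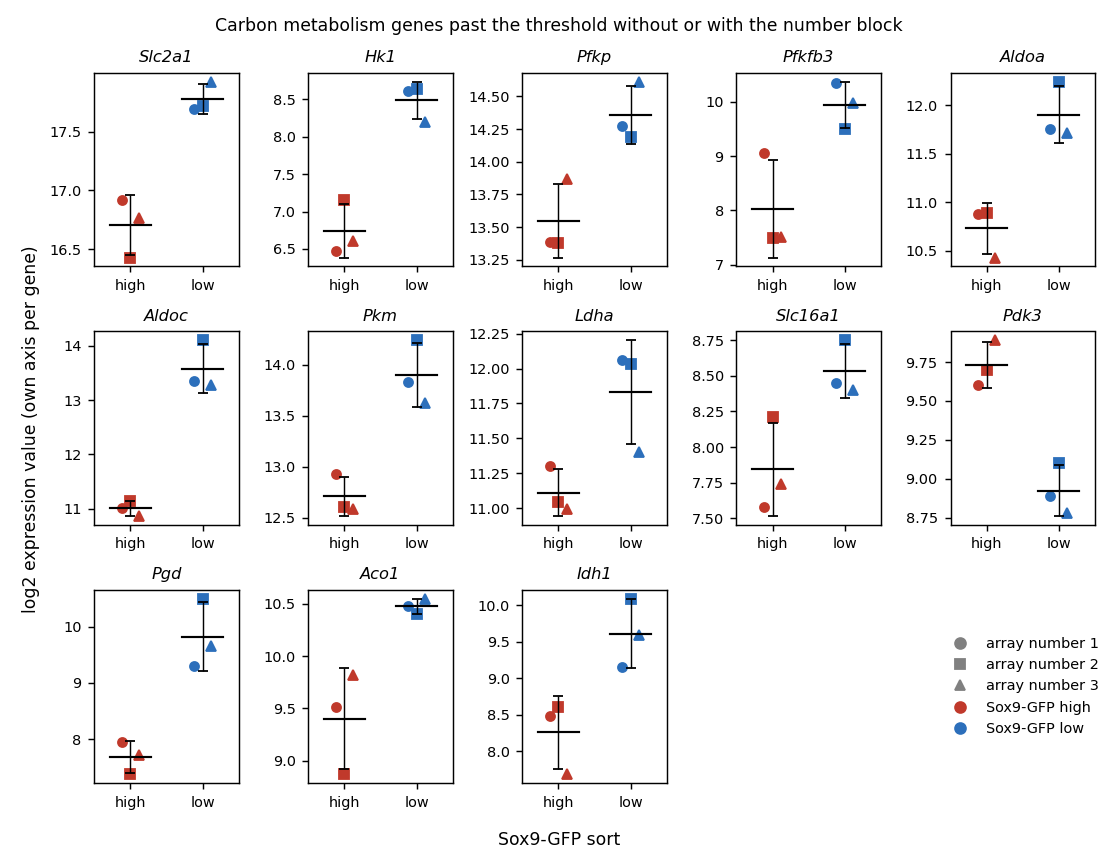
Log2 expression values (vertical axis, own range per gene) of the 13 genes called without or with the array number as a block, in Sox9-GFP high (left, red) and Sox9-GFP low (right, blue) arrays; marker shapes give the array number, the long line is the mean and the bar 1 SD (n = 3). In each panel the arrays of the sorts do not overlap, and *Pdk3* is the only gene higher in Sox9-GFP high cells.

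At the entry to the mitochondrion a single gene rose. *Pdk3*, one of the kinases that switch off pyruvate dehydrogenase, was 9.60, 9.70 and 9.89 in Sox9-GFP high arrays, against 8.89, 9.10 and 8.78 in Sox9-GFP low arrays, and was 1.75-fold higher (difference 0.80, standard error 0.18, adjusted p = 0.0228). *Pdk2* lay lower in every Sox9-GFP high array, at 5.13, 4.86 and 4.74 against 5.42, 5.61 and 5.35, and missed the threshold (difference -0.55, adjusted p = 0.102 without and 0.0779 with the block). The remaining kinases *Pdk1* and *Pdk4* and the catalytic subunits *Pdha1* and *Pdhb* did not pass.

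In the pentose phosphate pathway the only call was in its oxidative arm. *Pgd*, phosphogluconate dehydrogenase, which yields NADPH, was 7.96, 7.38 and 7.72 in Sox9-GFP high arrays, against 9.31, 10.50 and 9.65 in Sox9-GFP low arrays. It was 4.39-fold lower (difference -2.13, standard error 0.29, adjusted p = 0.00268), and its gap within an array number ran from -3.12 for number 2 to -1.34 for number 1. The lactonase *Pgls* and, in the non-oxidative arm, the isomerase *Rpia*, the epimerase *Rpe* and the transaldolase *Taldo1* lay between -0.24 and 0.17 and did not pass.

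Of the genes listed for the TCA cycle, those that fell encode enzymes of the cytosol rather than of the cycle itself. *Idh1*, the cytosolic isocitrate dehydrogenase that yields NADPH, was 8.49, 8.61 and 7.69 in Sox9-GFP high arrays, against 9.15, 10.09 and 9.59 in Sox9-GFP low arrays (2.54-fold lower, difference -1.35, standard error 0.30, adjusted p = 0.0230). *Aco1*, the cytosolic aconitase that also acts as an iron regulatory protein, was 9.51, 8.87 and 9.82 in Sox9-GFP high arrays, against 10.48, 10.40 and 10.55 in Sox9-GFP low arrays (2.11-fold lower, difference -1.07, standard error 0.24, adjusted p = 0.0244). The Sox9-GFP low arrays lay closer together for *Aco1* than the Sox9-GFP high arrays, with SDs of 0.49 in Sox9-GFP high and 0.07 in Sox9-GFP low cells. The cytosolic malate dehydrogenase *Mdh1* did not pass. The other 16 genes listed for the cycle encode mitochondrial enzymes, from citrate synthase (*Cs*) through the subunits of isocitrate dehydrogenase, oxoglutarate dehydrogenase, succinate-CoA ligase and succinate dehydrogenase to *Fh1* and *Mdh2*, with pyruvate carboxylase (*Pcx*). In limma 0 of the 16 passed without or with the block, and 1, lower, had an unadjusted p under 0.05. The methods' t-test also passed 0, but after adjustment it passed almost no probe set at all. Their differences lay between -0.51 for *Idh3b* and 0.34 for *Idh2*, with a median of -0.02, and 8 were positive and 8 negative. This division by compartment was made after the values were seen and is a description.

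Isoforms of one step were then compared within each array as a log2 ratio, which cancels what both probe sets share in an array. Such a ratio shows an unequal change and not which isoform is the more abundant. Of 14 pairs 12 could be formed, and in 5 of these the arrays did not overlap between the sorts. Among single probe sets 14.1% did not overlap upwards and 11.4% downwards, and no such share was computed for ratios. Each of the 5 pairs holds a gene called above, so these ratios partly restate those calls. *Idh2* over *Idh1* was 4.88, 4.81 and 5.57 in Sox9-GFP high arrays, against 3.55, 3.29 and 3.36 in Sox9-GFP low arrays, which is 1.69 higher. *Hk2* over *Hk1* was 1.56 higher and *Pdk3* over *Pdk2* 1.36 higher. *Aldoc* over *Aldoa* was 0.14, 0.26 and 0.44 in Sox9-GFP high arrays, against 1.59, 1.86 and 1.58 in Sox9-GFP low arrays, a difference of -1.40, so the brain-type aldolase fell by more than the muscle-type form. *Pfkp* over *Pfkm* differed by -1.10. Each of these 5 reached an exact two-sided permutation p = 0.10 (n = 3 each), the smallest that 3 arrays against 3 allow, and 0.24 after adjustment over the 12 pairs, so none could pass. As the arrays of these 5 did not overlap, their sign could not change within an array number or without any one array.

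**Figure D3:**
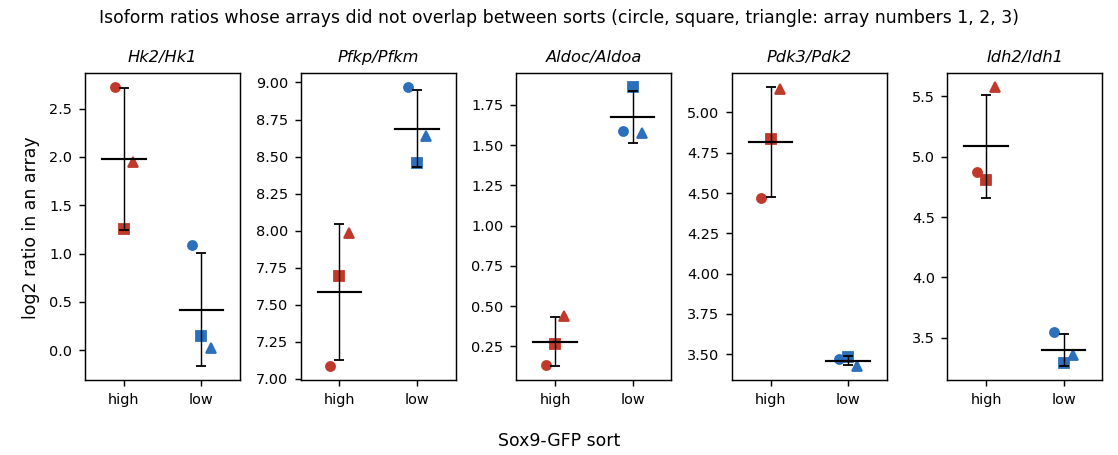
Log2 ratio of one isoform's value over another's within an array (vertical axis, own range per pair), in Sox9-GFP high (left, red) and Sox9-GFP low (right, blue) arrays, with the mean and 1 SD (n = 3). The 5 pairs shown are those whose arrays did not overlap, with shifts between -1.40 for *Aldoc* over *Aldoa* and 1.69 for *Idh2* over *Idh1*; the height of a ratio itself has no meaning between probe sets.

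The called genes also differed among themselves in how far they rested on single arrays. In 9 fits that each left out an array or an array number of both sorts, without the block, *Hk1*, *Aldoc* and *Pgd* were called in all 9. *Slc2a1*, *Aldoa* and *Pkm* were called in 7, losing the call without number 2 or without number 3 of both sorts (adjusted p up to 0.0972, 0.0764 and 0.0697). *Idh1* was called in 4 (lost without Sox9-GFP high array 3, without Sox9-GFP low array 2 or 3, and without number 2 or 3), and *Pfkfb3* in 3 (kept without Sox9-GFP high array 1, without Sox9-GFP low array 2 and without number 1). *Pdk3* was called in 2 (kept without Sox9-GFP high array 1 and without Sox9-GFP low array 2). *Pfkp* and *Aco1* were called in 1 each, both without Sox9-GFP high array 3. As the sorts did not overlap for any of the 11, their sign could not change in these fits. A further pattern ran through the whole set. Sox9-GFP low array 2 was the highest of its sort for 34 of 49 genes (69.4%), against 36.4% of all probe sets, and it was highest for 12 of the 16 mitochondrial genes as well. Sox9-GFP high array 2 was the highest of its sort for 23 of 49 genes and for 11 of the 16 mitochondrial genes. Its share over all probe sets was not computed. Without Sox9-GFP low array 2, 7 genes were called lower and 1 higher. Leaving out Sox9-GFP low array 1 or 3 instead also gave 7 lower, with 0 higher. Without number 2 or number 3 of both sorts 3 were lower and 0 higher.

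To set the fall of *Slc2a1* and *Pfkp* beside regulatory sequence, the 250 bases before the annotated start were read for the called genes that have only 1 start in the RefSeq promoter table (GRCm38.p6), namely *Slc2a1*, *Pfkp* and *Aco1*, which were lower, and *Pdk3*, which was higher. Capitals mark ACGTG and GCGTG on either strand (printed as CACGT and CACGC where the match is on the other strand), the core letters of the hypoxia response element bound by HIF factors, which are known to drive many glycolytic genes. The windows are chr4:119108495-119108744 on the plus strand for *Slc2a1*, chr13:6648772-6649021 on the minus strand for *Pfkp*, chr4:40143015-40143264 on the plus strand for *Aco1* and chrX:93832151-93832400 on the minus strand for *Pdk3*, each written 5′ to 3′ along its gene.
Slc2a1: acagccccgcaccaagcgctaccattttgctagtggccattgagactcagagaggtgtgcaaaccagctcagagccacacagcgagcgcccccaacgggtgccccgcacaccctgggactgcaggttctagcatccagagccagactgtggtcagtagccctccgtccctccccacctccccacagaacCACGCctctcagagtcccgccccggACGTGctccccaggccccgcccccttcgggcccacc
Pfkp: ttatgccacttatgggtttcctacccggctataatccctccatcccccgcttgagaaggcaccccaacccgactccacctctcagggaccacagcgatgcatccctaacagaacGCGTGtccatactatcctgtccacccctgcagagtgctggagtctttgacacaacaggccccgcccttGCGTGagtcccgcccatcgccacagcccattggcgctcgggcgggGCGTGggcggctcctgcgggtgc
Aco1: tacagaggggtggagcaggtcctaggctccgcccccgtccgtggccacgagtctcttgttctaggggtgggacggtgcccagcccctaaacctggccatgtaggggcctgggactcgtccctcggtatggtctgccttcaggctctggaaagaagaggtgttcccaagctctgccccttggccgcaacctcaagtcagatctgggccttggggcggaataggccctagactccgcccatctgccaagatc
Pdk3: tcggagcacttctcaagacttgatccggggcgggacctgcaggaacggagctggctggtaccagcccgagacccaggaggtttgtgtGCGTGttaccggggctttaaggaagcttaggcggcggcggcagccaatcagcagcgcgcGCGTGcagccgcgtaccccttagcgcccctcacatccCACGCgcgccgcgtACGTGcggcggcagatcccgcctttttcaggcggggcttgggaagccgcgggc
The letters were found at 2 positions in *Slc2a1*, 3 in *Pfkp*, 4 in *Pdk3* and 0 in *Aco1*, with the most in the gene that was higher. Of all 32851 windows of this length, 38.6% held at least 1 such match. They were found in 12 of 18 windows (66.7%) of the 10 called genes that were lower and in 36 of 48 windows (75.0%) of 36 genes that did not pass. A match is a run of letters and not a site shown to be bound.

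Of 58 measured genes among 66 others of the same pathways (further isoforms, carriers, regulators of pyruvate dehydrogenase, NADPH-yielding and shuttle enzymes), 2 were lower, 2 were higher and 54 did not pass, a share near that of all probe sets. *Me1*, the cytosolic malic enzyme that yields NADPH, was 10.30, 9.78 and 9.52 in Sox9-GFP high arrays, against 12.01, 11.26 and 10.92 in Sox9-GFP low arrays (2.88-fold lower, adjusted p = 0.0132). *Gpd1*, the cytosolic glycerol-phosphate dehydrogenase, was 7.01, 6.42 and 5.98 in Sox9-GFP high arrays, against 8.20, 8.34 and 7.35 in Sox9-GFP low arrays (2.81-fold lower, adjusted p = 0.0197). *H6pd*, whose enzyme makes NADPH inside the endoplasmic reticulum, was higher, at 7.63, 7.0 and 6.86 in Sox9-GFP high arrays against 6.04, 6.19 and 5.96 in Sox9-GFP low arrays (2.14-fold, adjusted p = 0.0153). *Fbp2*, a fructose bisphosphatase of muscle, was 1.78-fold higher (adjusted p = 0.0350) but both sorts lay under the array medians, where background can mask or mimic a change, and it was called in 0 of the 9 fits that left out arrays. *Me1* lost its call without Sox9-GFP high array 3 and without number 2. *Gpd1* kept its call without Sox9-GFP high array 1, Sox9-GFP low array 3, number 1 or number 3, and *H6pd* lost it without Sox9-GFP low array 3 or any number. Among those that did not pass, *Slc25a10*, the mitochondrial dicarboxylate carrier, differed by -0.78 (adjusted p = 0.140 without and 0.0437 with the block), *Gpd2* by -0.65, *Pgm1* by -0.54 and *D2hgdh* by -0.53.

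Of 8 regulators of these pathways 0 passed in limma, and 3 had an unadjusted p under 0.05 (2 higher and 1 lower). The methods' t-test also passed 0, but after adjustment it passed almost no probe set, so that 0 and those below are uninformative. *Hif1a* was 11.29 ± 0.27 in Sox9-GFP high and 11.48 ± 0.34 in Sox9-GFP low cells, and *Myc*, another activator of glycolytic genes, 15.97 ± 0.30 and 15.88 ± 0.31 (SD, n = 3 each). *Epas1* differed by -0.06, *Txnip*, an inhibitor of glucose uptake, by -0.21, *Tigar*, a phosphatase that lowers the flux through glycolysis, by 0.01, and the glucose-responsive factors *Mlxip* by -0.72 (adjusted p = 0.0624, and 0.0408 with quantile normalization) and *Mlxipl* by 0.41 (adjusted p = 0.226). *Ppargc1a*, a coactivator of mitochondrial genes, was 9.72, 8.86 and 7.92 in Sox9-GFP high arrays, against 7.90, 7.75 and 7.41 in Sox9-GFP low arrays, with adjusted p = 0.105 without and 0.0173 with the block. Its Sox9-GFP high arrays were spread widely, and the lowest of them nearly met the highest Sox9-GFP low array. Of 17 HIF targets outside glycolysis 0 passed in limma or the methods' t-test (5 had an unadjusted p under 0.05, all lower), with a median difference of 0.00, and with the block only *Hilpda*, a lipid droplet protein, was lower (difference -1.03, adjusted p = 0.0575 without and 0.00450 with it). Of the markers, 5 of 7 for fat cells and 3 of 6 for fibroblasts lay below all array medians. The mean of each list was lower in all 3 Sox9-GFP high arrays than in any Sox9-GFP low array. Of 7 adipocyte genes 0 passed in limma or the methods' t-test (1 had an unadjusted p under 0.05), and *Adipoq* stayed at 2.88 in Sox9-GFP high and 2.94 in Sox9-GFP low cells. The mean over the list was 4.53 to 4.83 in Sox9-GFP high and 4.89 to 4.97 in Sox9-GFP low arrays, with the widest gap in *Fabp4* (difference -1.42, adjusted p = 0.104) and a median difference of -0.12 over the list. Of 6 fibroblast genes 1 passed, *Dcn*, which was 4.67-fold lower (adjusted p = 0.00122), and with the block *Dpt* was lower too (difference -0.67, adjusted p = 0.133 without and 0.0354 with it). The list mean was 5.23 to 5.37 in Sox9-GFP high and 5.44 to 5.83 in Sox9-GFP low arrays, but 3 of the 6 genes differed upwards and 3 downwards, with a median of 0.05, and *Dcn* had by far the widest gap (difference -2.22). The part of either in the falls above was not tested.

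**Figure D4:**
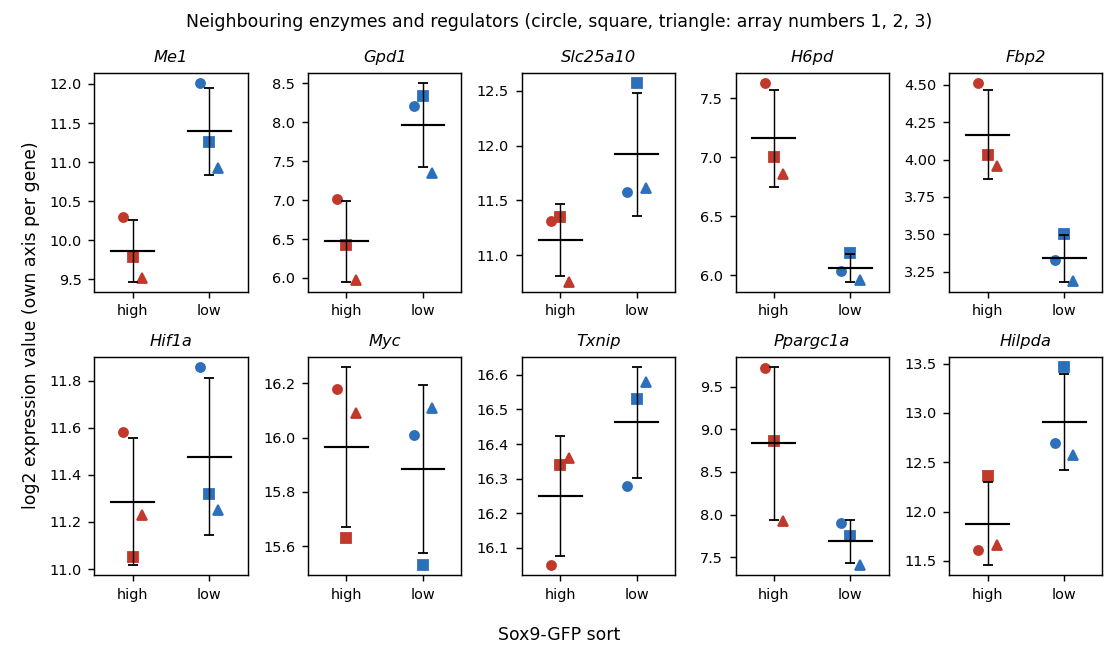
Log2 expression values (vertical axis, own range per gene) of neighbouring enzymes and of regulators in Sox9-GFP high (left, red) and Sox9-GFP low (right, blue) arrays, with the mean and 1 SD (n = 3). *Me1* and *Gpd1* were lower and *H6pd* and *Fbp2* higher in Sox9-GFP high cells, while the arrays of *Hif1a*, *Myc* and *Txnip* overlapped.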

How the data were processed

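Total RNA of the sorted cells was labelled with biotin by the GeneChip WT PLUS protocol and measured on one-colour arrays, 3 per sort. The table the authors deposited holds log2 expression values, with a row per probe set. Software, normalization and genome build were not given in the sources used here, and the values carry no signal over background. Arrays were grouped by their titles, which number them 1 to 3 in each sort. After subtraction of the sort mean, equal numbers correlated at 0.236, 0.232 and 0.218 and unequal ones at most at -0.0604, so by these values the numbers appear to pair the arrays. The subtraction itself makes unequal numbers negative on average where equal ones are positive, so the contrast between them overstates this. The numbers are not tied to animals, and p-values measure the spread between these arrays, which may be technical.

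Probe sets were named by the platform's gene annotation (19572 with 1 symbol, 2634 unnamed here). Several probe sets of a gene would have been represented by that with the highest mean, which was needed for 0 of the 49 genes. All 22206 probe sets were fitted in R 4.3.3 with limma 3.58.1 (lmFit, eBayes, two-sided, Benjamini-Hochberg, threshold 0.05), without a block, as the methods name an unpaired test. These calls and all fits that left out arrays thus ignore this apparent pairing, and blocked values are given where they change a call. Folds are 2 raised to the log2 difference. The fit was also run on simulated data with independent noise in each probe set and array. Those data held no pairing by array number, so the run does not speak to the pairing. Promoter sequences are from RefSeq (GRCm38.p6), matched for 47 of the 49 genes. Members and lists were chosen with earlier results of these data known, so no list was tested. Genes were named where called, as isoforms or partners of called genes, and as pathway regulators. Alternatives were the block, quantile normalization, centring on medians, a filter that dropped the dimmest 33%, array weights, a trended robust prior, averaged probe sets per gene, the methods' t-test, and leaving out arrays or numbers.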

Additional observations from a re-analysis of the deposited data

How the results depend on the processing

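With quantile normalization, centring, array weights, a trended and robust prior, the mean over probe sets or without the dimmest 33%, the same 10 genes were called lower and the same 1 higher. Exceptions outside them were *Fbp2*, not tested without the dimmest probe sets (1 other pathway gene higher there), *Pgk1*, at -0.019 with quantile normalization, and *Mlxip*, past the threshold with quantile normalization (adjusted p = 0.0408) and array weights (adjusted p = 0.0375). With the replicate block 1404 probe sets were called higher and 1108 lower, against 888 and 711 without it. It changed no call of a gene named here other than those given with both values. The methods' t-test passed 2118 higher and 1647 lower unadjusted, among them 2 and 14 of the 49 genes, but 1 and 2 after Benjamini-Hochberg, with 0 of the 49, of the glycolysis, pentose phosphate and TCA groups and of the other pathway genes.

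Leaving out arrays or numbers, 231 to 672 probe sets were higher and 316 to 563 lower, of the 49 genes 0 to 1 and 3 to 8, of glycolysis 2 to 6 lower, of the TCA list 0 to 1 lower, and of other pathway genes 0 to 1 higher and 0 to 2 lower. Some differences changed sign: *Hk2* (-0.53 to 0.21), *Pfkm* (-0.0641 to 0.48), *Gapdh* (-0.20 to 0.049), *Pgk1* (-0.0935 to 0.20), *Hif1a* (-0.34 to 0.0003), *Epas1* (-0.47 to 0.16), *Myc* (-0.0954 to 0.25), *Tigar* (-0.21 to 0.28), and the ratios *Pfkp* over *Pfkl* (-0.65 to 0.0072), *Ldhb* over *Ldha* (-0.11 to 0.39), *Pdk1* over *Pdk2* (-0.14 to 0.24) and *Pdk4* over *Pdk2* (-0.10 to 0.56). The number of arrays limits the precision, and below the array medians background can mask a change.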
